A study of Mus musculus with 8 samples.

Results

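The basonuclins Bnc1 and Bnc2 were followed in the striatum of newborn mice that lack the transcription factor Ctip2, listed under its current symbol Bcl11b. All probe sets whose annotated symbol is Bnc2 or Bnc1 were taken, each kept separate, which gave 2 of 18193 genes and 4 of 45037 probe sets, 3 for Bnc2 and 1 for Bnc1. Bnc2 was chosen from the difference of its wild type and null values on these same arrays, for the largest rise of any gene and for the disagreement of its probe sets, so these values are given as a description with no test. Bnc1 came in as its paralogue and was not chosen for its values. A probe set is a group of short oligonucleotide probes for 1 transcript region, and its value here is a log2 expression value, on which 1 unit is a 2-fold difference.

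RNA was taken at postnatal day 0 from BALB/c mice. Coronal slices were 300 µm thick, and a punch of 500 µm diameter was cut from the middle of the striatum. The arrays held 3 wild type mice, 1 Ctip2 heterozygote and 4 Ctip2 null mutants, each an independent animal. The labels describe no other allele, agent or treatment, and the sources used here do not state which part of Ctip2 the null allele lacks. A punch holds every cell type of its region, so more cells of a type and more RNA per cell cannot be told apart.

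Basonuclins are nuclear proteins with paired C2H2 zinc fingers. Basonuclin 1 is best known from basal keratinocytes and germ cells, where it acts on transcription of ribosomal RNA genes by RNA polymerase I. Basonuclin 2 is more widely expressed, is prominent in skin and in mesenchyme, including that of the developing head, and has been placed in nuclear speckles, where splicing factors collect.

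The arrays themselves were checked first. Bcl11b, the targeted gene, read 12.45, 12.00 and 12.42 on its brightest probe set in the wild type mice, 12.43 in the single heterozygote, and 11.13, 11.10, 11.47 and 11.03 in the null mice. It was lower in every null array on each of its 4 probe sets, with signal left in all of them. On a scale with the wild type mean at 0 and the null mean at 1, the array labelled heterozygote stood at -0.12, 0.05, -0.20 and -0.18 on these probe sets, so they show no lower Bcl11b RNA in it. Of 16 measured genes of striatal projection neurons, 15 lay above the array median on all 8 arrays, and 5 fell in null striatum by limma at an adjusted p under 0.05, with 0 higher, where 0.676% of all genes were called lower and 2.38% higher. At an unadjusted p under 0.05, 4 of the 16 were higher and 6 lower, and an intensity trend with a robust prior called 0 higher and 5 lower. The SD of log2 values differed between arrays even after normalization, from 1.84 to 2.06, and the choroid plexus gene Ttr ranged from 7.11 to 13.44 and was highest in wild type 1 and null 2.

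The brightest Bnc2 probe set, 1438861_at, separated the null arrays from all others. Wild type 1 to 3 read 5.44, 6.45 and 5.86, the heterozygote read 5.38, and null 1 to 4 read 9.98, 9.50, 10.25 and 10.23. Every null array was far above every wild type array, and the heterozygote had the lowest log2 value of the 8. The wild type mean was 5.92 ± 0.51 (SD, n = 3) and the null mean 9.99 ± 0.35 (SD, n = 4), a log2 difference of 4.07 or 16.8-fold. This is the value by which the gene was picked, and it ranked 1 among 45037 probe sets.

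The change carried this probe set from around or below the middle of the array's range to near its top. In wild type between 31.9% and 52.3% of the probe sets on the same array read lower, and in null striatum between 91.3% and 95.8% did. Wild type 1 and 3 read below the median of their arrays. These shares give a place among values and not an abundance, since probes differ in how strongly they bind. No detection calls were used, so a low level and no RNA were not told apart in wild type, which limits what the fold measures. The lowest null array stood 3.05 above the highest wild type array. That gap was larger on 1 other probe set, 1442873_at of Fign, which encodes a microtubule-severing ATPase. Of all probe sets 51 were at least 4-fold higher in null striatum and 5 at least 8-fold.

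The second Bnc2 probe set, 1444646_at, was far dimmer and also read higher in null arrays. Wild type 1 to 3 read 2.90, 3.22 and 3.10 here, the heterozygote 2.86, and null 1 to 4 read 3.92, 3.61, 4.19 and 3.76. Again no null array fell within the wild type range and the heterozygote was the lowest, but the groups were only 0.39 apart at their nearest. The means were 3.07 ± 0.16 (SD, n = 3) and 3.87 ± 0.25 (SD, n = 4), a log2 difference of 0.80 or 1.74-fold. At this signal a low level and no RNA cannot be told apart in wild type, which limits what the fold measures. Its wild type values lay above only 0.477% to 1.54% of the probe sets on their arrays and its null values above 5.95% to 12.2%, at the bottom of the measured range.

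The third Bnc2 probe set, 1459132_at, showed no separation. The 3 wild type arrays read 3.85, 4.50 and 4.03, the heterozygote 3.44, and the 4 null arrays 4.20, 3.89, 3.80 and 4.13, in order of their numbers. The groups overlapped, with means of 4.13 ± 0.34 (SD, n = 3) and 4.01 ± 0.19 (SD, n = 4) and a log2 difference of -0.12. This difference is smaller than the SD within the wild type arrays, and its sign turned with single choices: it was 0.07 without wild type 2 and 0.15 with the SD of each array as a covariate. Between 7.64% and 13.7% of probe sets read lower in wild type, and between 7.87% and 11.5% in null striatum. At this signal a low level and no RNA cannot be told apart in either genotype, so these values do not show that Bnc2 was unchanged.

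**Figure D1:**
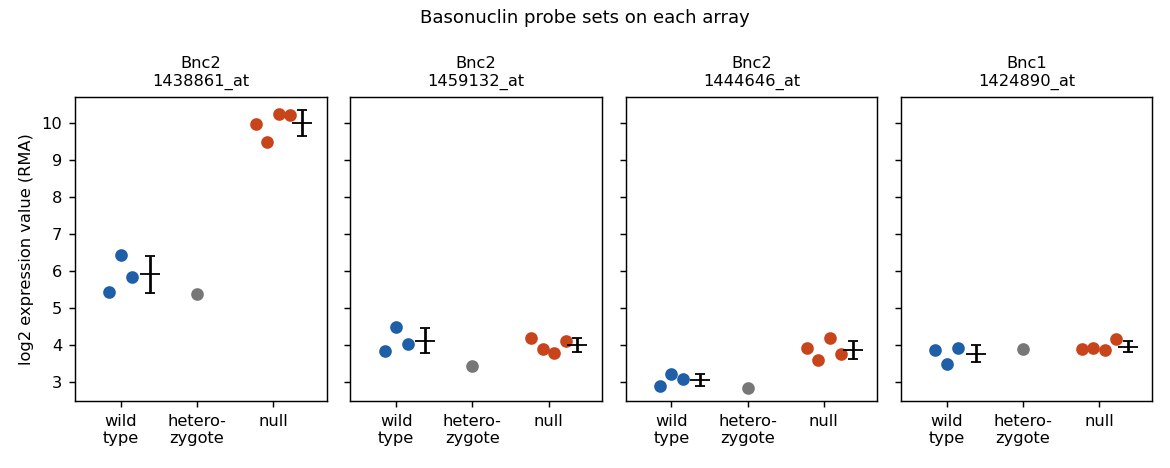
Log2 expression values of the 3 Bnc2 probe sets and the Bnc1 probe set on each of the 8 arrays (vertical axis, shared), by genotype on the horizontal axis. Points are single mice, and the bars beside wild type and null give mean ± SD; on 1438861_at the null arrays sit between 9.50 and 10.25, above all wild type arrays, while on 1459132_at and Bnc1 the groups overlap.

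Wild type and null arrays thus did not overlap on 2 of the 3 Bnc2 probe sets, with null above on both. Over all probe sets 7.7% had the null arrays above without overlap, and among probe sets within 0.5 of the mean level of 1438861_at 13.9% did and of 1444646_at 2.26%. Because Bnc2 was chosen for its rise, nothing is read from that count. The log2 differences of the 3 probe sets spanned 4.19 units, and since Bnc2 was also chosen for this disagreement the span is a description. Among 25 genes that have at least 2 probe sets and whose brightest was at least 4-fold higher in null striatum, 5 had a probe set of negative difference. More widely, limma called 1.87% of all probe sets higher in null striatum, and of 458 genes with 2 or more probe sets and at least 1 called higher, 194 had another probe set of negative difference and 40 had every probe set called higher. The deposited files give no probe sequences, so where in the transcript each Bnc2 probe set lies was not analysed here.

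**Figure D2:**
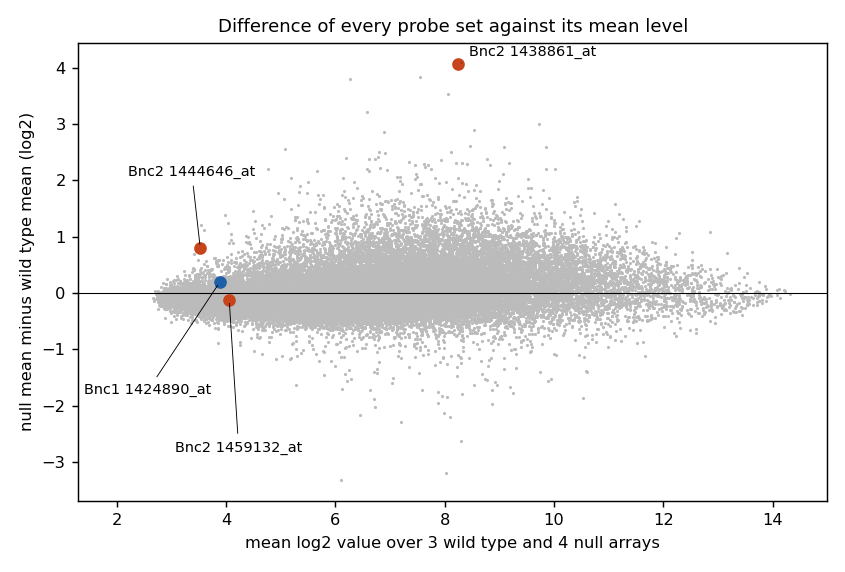
The difference of null and wild type means (log2, vertical axis) of each of 45037 probe sets against its mean level over 3 wild type and 4 null arrays (log2, horizontal axis). Bnc2 1438861_at is the highest point at 4.07, while the other Bnc2 probe sets and Bnc1 lie at the dim end, at 0.80, -0.12 and 0.19.

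Both Bnc2 probe sets that differed agreed in part on the order of the null animals, with null 3 highest and null 2 lowest on each. The share of all probe sets with these ends was not counted, so nothing is read from this agreement. Null 2 was also an array of high Ttr, and without wild type 1 and null 2 together the differences were 3.999 on 1438861_at and 0.80 on 1444646_at. The other 3 null arrays spanned 9.98 to 10.25 on 1438861_at. The SD of the null arrays, 0.35, was larger than that of 72.0% of the probe sets within 0.5 of the same null level, whose median SD was 0.26.

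The wild type arrays and the heterozygote kept 1 order of log2 values on all 3 Bnc2 probe sets: wild type 2 highest, then wild type 3, wild type 1 and the heterozygote. This was the reverse of the order of the arrays' SD of log2 values, which was 1.84, 1.87, 1.97 and 2.06 in that sequence, and its part in these values was not tested. The same order held on 17.5% of all probe sets and on 23.1% of those within 0.5 of the wild type level of 1438861_at. At that level the median SD over the wild type arrays was 0.19, and 95.3% of probe sets had a smaller SD than the 0.51 of Bnc2. Wild type 1 and null 1 had nearly the same SD of log2 values, 1.97 and 1.96, and read 5.44 and 9.98 on 1438861_at, 2.90 and 3.92 on 1444646_at and 3.85 and 4.20 on 1459132_at. With the SD of each array as a covariate the differences of these probe sets were 4.41, 0.81 and 0.15. These values are a description, and the part of array SD in the differences was not tested.

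The array labelled heterozygote, which the choice of Bnc2 did not use, did not share the null level of 1438861_at and 1444646_at. It was at wild type level on Bcl11b itself. On a scale with the wild type mean at 0 and the null mean at 1, it stood at -0.13 on 1438861_at and -0.26 on 1444646_at. In log2 value it was below every wild type array on both. By place among the probe sets of its array it was not the lowest on 1438861_at, where 32.5% read lower, against 31.9% on wild type 1. The shares that follow are over probe sets with a rise at any level and were not matched to the level of either Bnc2 probe set. Of 3469 probe sets with null above wild type without overlap, the heterozygote lay nearer the wild type mean on 775, or 22.3%, and below every wild type array on 118, or 3.40%. Of the 51 that differed at least 4-fold it lay nearer the wild type mean on 16, or 31.4%, and its median position was 0.62. With 1 animal there is no spread and no test of this level, and the heterozygote also had the widest SD of log2 values of the 8 arrays, 2.06.

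Bnc1 was dim on every array, and its difference between genotypes was smaller than its SD in wild type. Its probe set 1424890_at gave 3.88, 3.50 and 3.94 for wild type 1 to 3, 3.90 for the heterozygote, and 3.89, 3.93, 3.86 and 4.18 for null 1 to 4. Wild type 2 was the lowest and null 4 the highest, and the groups overlapped. The means were 3.78 ± 0.24 (SD, n = 3) and 3.96 ± 0.15 (SD, n = 4), a log2 difference of 0.19 with a 95% interval of -0.14 to 0.52 (limma, adjusted p = 0.456 over all probe sets). Between 3.52% and 10.4% of the probe sets on these arrays read lower, so that a low level of Bnc1 RNA and no RNA cannot be told apart at this signal. Over the array limma called 2.32% of probe sets in either direction.

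Genes of transcription by RNA polymerase I and of nuclear speckles, where basonuclins have been placed, were described next, from lists chosen with earlier results known. They are not a list of basonuclin targets. Of 17 measured genes of transcription by RNA polymerase I, 0 were higher and 0 lower by limma at an adjusted p under 0.05, with 1 higher and 3 lower at an unadjusted p under 0.05 and 0 called with an intensity trend and a robust prior. Their median difference was 0.00, against -0.08 over 18193 genes, of which 2.38% were called higher and 0.676% lower. At an unadjusted p under 0.05, 12.3% of all genes were higher and 9.88% lower, and 39.4% had a positive difference. Polr1a, the largest polymerase I subunit, differed by 0.14 (adjusted p = 0.585) and Polr1b, the next largest, by -0.13 (adjusted p = 0.595). The members of largest difference were the subunit gene Polr1e at -0.69 (adjusted p = 0.0818) and Rrn3, an initiation factor of the polymerase, at 0.57 (adjusted p = 0.248).

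No nuclear speckle gene passed the test. Of 19 measured members 0 were called in either direction by limma, 5 were higher and 0 lower at an unadjusted p under 0.05, 0 were called with the trend and robust prior, and 16 had a positive difference, with a median of 0.27. The splicing factor genes Srsf5 and Srsf10 differed most, by 0.89 (adjusted p = 0.131) and 0.76 (adjusted p = 0.155), and Srsf1 and Srsf2 by 0.28 and 0.20 (adjusted p = 0.376 and 0.519). Srsf5 was called with an adjusted p of 0.0236 without null 4, which read 10.99 where the other null arrays read 11.61 to 12.40, and Srsf10 with 0.0440 without wild type 1. The heterozygote read 11.91 on Srsf5 and 8.21 on Srsf10, above the null means of 11.68 and 8.13.

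Markers of cell types in which basonuclins are prominent were set beside Bnc2, and with 2.38% of all genes called higher a count of 0 in lists of this size is near the background. Of 20 fibroblast genes, meningeal ones included, limma called 0 in either direction, 0 were higher and 2 lower at an unadjusted p under 0.05, and 0 were called with the trend and robust prior. Their median difference was -0.17. On the log2 scale their summed linear values lay between 11.15 and 11.20 in wild type and between 10.91 and 11.01 in null striatum. All null arrays were below all wild type arrays, with the heterozygote at 11.23. Igfbp2, the brightest member, led the heterozygote's sum at 9.96, against a wild type mean of 9.09. On every other member the heterozygote read below the wild type mean. The collagen genes Col1a1 and Col1a2 differed by 0.09 and -0.09 (adjusted p = 0.720 and 0.657), Col6a1 by -0.82 (adjusted p = 0.124) and Lum, the matrix proteoglycan lumican, by -0.49 (adjusted p = 0.144).

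The list for stratified epithelium and mesothelium, where Bnc1 is at home, gave the same counts. Of 15 genes limma called 0, with 0 higher and 2 lower at an unadjusted p under 0.05 and 0 with the trend and robust prior, and the median difference was -0.17. The summed values lay between 10.47 and 10.66 in wild type and between 10.40 and 10.53 in null striatum, with the heterozygote lowest at 10.28. The basal keratins Krt5 and Krt14 differed by -0.29 and -0.17 (adjusted p = 0.376 and 0.464), Krt8 by -0.38 (adjusted p = 0.189) and the desmosome-associated gene Perp by 0.37 (adjusted p = 0.264). No probe set is at 0 on this scale, and 7 of the 15 lay below the array median on all 8 arrays.

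Lists for neighbouring tissue and vessels were set beside Bnc2 in the same way. Of 13 choroid plexus genes, 10 genes of cortical projection neurons and 12 of endothelial cells and pericytes, limma called 0 in either direction. At an unadjusted p under 0.05 the choroid plexus list had 1 lower, the cortical list 0 and the vessel list 5 higher, against 12.3% of all genes, and the trend and robust prior called 0 of each. Summed choroid plexus values ran from 10.33 to 13.44 in wild type and from 9.40 to 13.54 in null striatum, led by Ttr, with Folr1 at a difference of -0.42 (adjusted p = 0.356). The heterozygote and null 1 shared the lowest sum, 9.40, and read 5.38 and 9.98 on Bnc2. These are 1 array of each genotype, and the part of choroid plexus in the Bnc2 values was not tested. Cortical sums ran from 10.62 to 10.93 and from 10.58 to 11.03, with Neurod6 and Tbr1, transcription factors of cortical neurons, differing by 0.03 and -0.01 and Emx1 and Eomes by -0.28 and -0.33. Vessel sums ran from 10.93 to 11.19 in wild type and 11.17 to 11.71 in null striatum, with 11.59 in the heterozygote. Of the 12 vessel genes 11 had a positive difference, with a median of 0.26, against 39.4% and -0.08 over all genes. The choroid plexus list had 5 positive and a median of -0.14, and the cortical list 2 and -0.16. The pericyte gene Rgs5 differed by 0.58 (adjusted p = 0.140) and the endothelial receptor gene Flt1 by 0.51 (adjusted p = 0.228). Cldn5 differed by 0.03 and Pecam1 by -0.19. The part of vessels in the Bnc2 values was not tested.

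**Figure D3:**
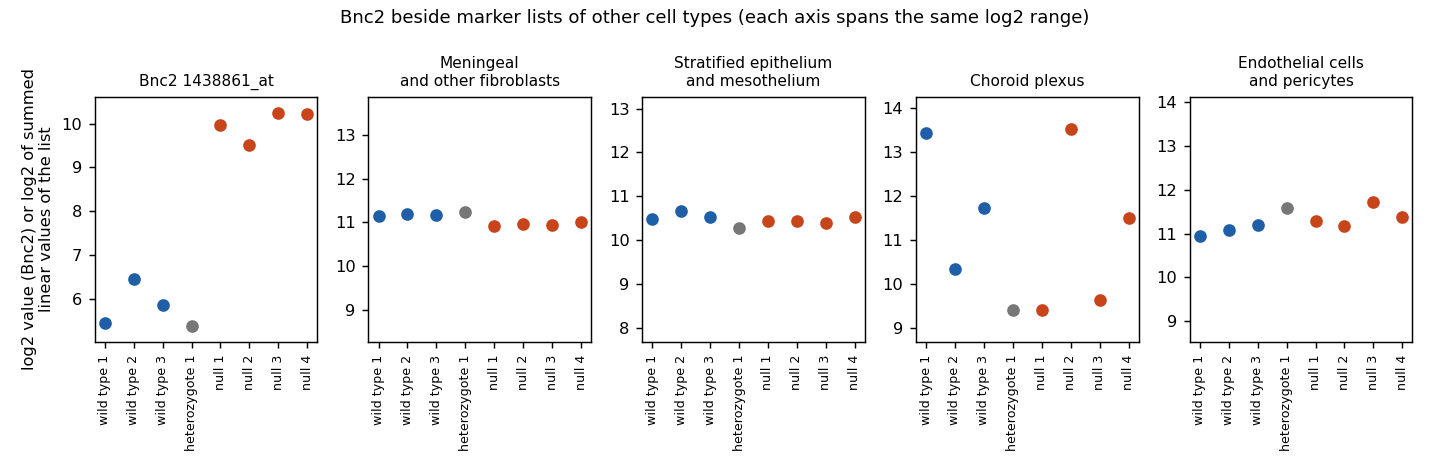
Bnc2 1438861_at (log2 value) beside the log2 of the summed linear values of 4 marker lists on each of the 8 arrays; every vertical axis spans the same number of log2 units. Bnc2 separates the 4 null arrays, the fibroblast and epithelial sums change by less than 1 unit, and the choroid plexus sums are highest in wild type 1 and null 2.

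Of the 16 genes of striatal projection neurons 7 had a positive difference, and their median was -0.22. Summed values overlapped, from 14.53 to 14.69 in wild type and 14.48 to 14.66 in null striatum. The 4 that were higher at an unadjusted p under 0.05 were the transcription factor genes Isl1 at 0.69 (adjusted p = 0.183), Foxp2 at 0.63 (0.105), Meis2 at 0.57 (0.0633) and Ebf1 at 0.51 (0.0939) by limma, named after their values were seen. The genes that fell after adjustment included Ppp1r1b, the phosphoprotein DARPP-32, and Drd1, the D1 dopamine receptor, with differences of -1.30 and -0.93 (limma adjusted p = 0.0235 and 0.0438). Arpp21 and Gng7, also of their signalling, differed by -1.86 and -1.63 (adjusted p = 0.0220 and 0.0044). Calls were lost without single arrays: for Ppp1r1b without wild type 2 or null 1 or 2, for Drd1 without wild type 1 or 2 or null 1, 2 or 3, and for Arpp21 without wild type 2 or 3 or null 1, with the highest adjusted p values, 0.0983, 0.145 and 0.0958, each without wild type 2. The number of the 16 genes that fell was 2 without wild type 2 or null 1 and 3 without null 2.

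The genes beside Bnc2 on chromosome 4 were described next. Bnc2 was chosen for the largest rise of any gene, so smaller differences in its neighbours were fixed in advance. On 1 side lie Ccdc171, a coiled-coil gene, and Psip1, which encodes a chromatin-binding coactivator, and on the other side Cntln, a centrosomal protein gene, and Sh3gl2, an endophilin gene of synaptic vesicle recycling. Ccdc171 differed by -0.24 (95% interval -0.61 to 0.13, adjusted p = 0.409) and Psip1 by 0.44 (0.07 to 0.82, adjusted p = 0.204), each on its brightest probe set. The other Ccdc171 probe set differed by -0.16. Psip1 also differed by 0.74 on 1442148_at (adjusted p = 0.100), with null above wild type without overlap, and by 0.57 on 1417166_at (adjusted p = 0.198). Cntln gave 7.14, 6.46 and 5.81 for wild type 1 to 3, 7.44 for the heterozygote, and 7.58, 7.55, 8.41 and 7.51 for null 1 to 4. All null arrays were above the wild type arrays, which themselves spread over 1.33 units, and the difference of 1.29 (0.59 to 1.99) had an adjusted p of 0.0677. It was called without wild type 1 (0.0211), with the trend and robust prior (0.0498) and with dim probe sets left out (0.0487). Sh3gl2 differed by 0.75 (0.18 to 1.33, adjusted p = 0.167) on its brightest probe set, but by 0.21 on 1418792_at and -0.21 on 1449228_at.

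Beside Bnc1 on chromosome 7 lie Hdgfl3, a growth factor-related gene, and Tm6sf1 on 1 side and Sh3gl3, another endophilin gene, and Adamtsl3, a matrix protein gene, on the other. Hdgfl3 differed by 0.81 (95% interval 0.41 to 1.22, adjusted p = 0.0509) on its brightest probe set, and 1 of its 3 probe sets, 1450924_at, was called higher, at 2.05-fold. The brightest was called without wild type 1 (0.0197) or null 4 (0.0471), with quantile normalization (0.0467) and with dim probe sets left out (0.0411). Tm6sf1 differed by 0.05 (adjusted p = 0.818) on its brightest probe set and by 0.49 (adjusted p = 0.208) on 1424443_at. Sh3gl3 differed by 0.41 (adjusted p = 0.217) and Adamtsl3 by -0.23 (adjusted p = 0.463). With 1 probe set per gene, limma called 0 of the 8 neighbours, 5 were higher and 0 lower at an unadjusted p under 0.05, against 12.3% and 9.88% of all genes, and the trend and robust prior called 1, Cntln. On all 8 the heterozygote lay nearer the null mean than the wild type mean, or past the null mean, unlike on 1438861_at and 1444646_at of Bnc2. Of the 3469 probe sets with null above wild type without overlap, it lay nearer the wild type mean on only 22.3%. The share over all genes was not counted, so nothing particular to these neighbours is read from that count. The 8 neighbours include Ccdc171 and Adamtsl3, whose null means were below wild type.

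**Figure D4:**
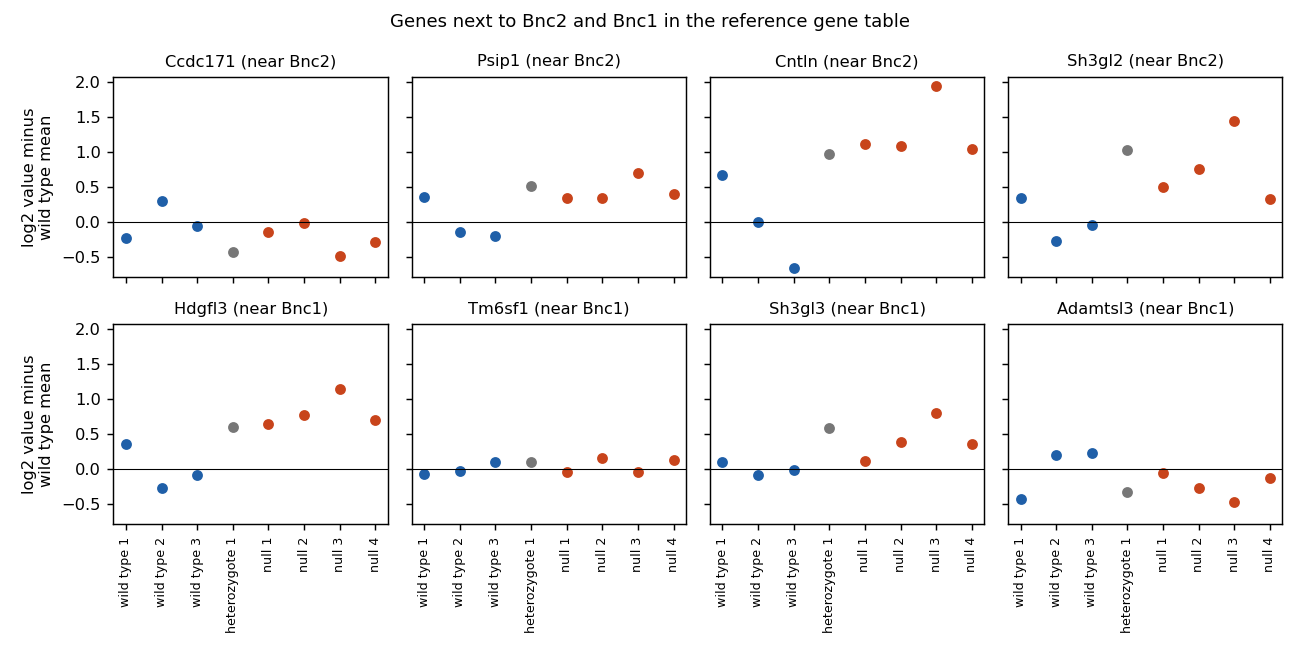
Log2 values minus the wild type mean (vertical axis) of the 2 nearest measured genes on each side of Bnc2 (top row) and Bnc1 (bottom row) on each of the 8 arrays (horizontal axis). Cntln shows the widest separation, with null arrays between 7.51 and 8.41 before subtraction, and the heterozygote sits with or beyond the null arrays on most of these genes.

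Of 8414 genes that varied over the 8 arrays more than the median gene, with Bnc2, predicted gene models, clone names, microRNA genes and ribosomal pseudogenes left out, 8 were named as most like Bnc2 by Pearson correlation with 1438861_at. Their r lay between 0.95 and 0.99, with 4 genes above 0.95 and 25 above 0.9 among all compared. These r values mostly read the gap between null and other arrays, the points share arrays with unequal SDs, and the genes are a description with no test. Only 3 of the 8 stayed among the first 8 without the heterozygote and 1 by Spearman correlation, although all 8 stayed among the first 100 without the heterozygote.

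Six3, a homeobox gene of the developing forebrain, came first with r = 0.99, with 7.65, 7.91 and 7.56 for the wild type arrays, 7.80 for the heterozygote, and 9.16, 8.94, 9.02 and 9.19 for the null arrays. It shared with Bnc2 the highest wild type value in wild type 2 and the lowest null value in null 2. It did not share the other ends, with its lowest wild type value in wild type 3 and its highest null value in null 4. Nts, the precursor of neurotensin, read 7.16, 6.89 and 6.85 in wild type, 7.24 in the heterozygote and 9.62, 9.26, 9.75 and 9.67 in null arrays. Its null arrays followed the order of 1438861_at at both ends, with null 3 highest and null 2 lowest. Its wild type arrays did not, with wild type 1 highest, the lowest wild type array on 1438861_at.

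Fign had r = 0.96 and, on the probe set that represents it, read 4.85, 4.43 and 4.97 in wild type, 5.14 in the heterozygote and 7.78, 8.02, 7.88 and 8.17 in null arrays. Here wild type 2 was the lowest control and null 1 the lowest null array, so the likeness lies in the separation of the groups and not in the order within them. Unc5d, a netrin receptor gene, differed by 2.40 and had its heterozygote at a position of 0.01. Igsf21, an immunoglobulin family adhesion gene, differed by 1.48 with the heterozygote at 0.29, and Syt13, a synaptotagmin gene, by 1.03 with 0.05. Kcnc4, a voltage-gated potassium channel gene, differed by 1.22 with the heterozygote at 0.00. Scgn, the calcium-binding protein secretagogin, differed by 1.66 with the heterozygote at -0.11, and it was the gene of these 8 that had the highest Spearman correlation, 0.98. All 8 had null arrays above wild type without overlap and a heterozygote nearer wild type, as the measure of likeness favours.

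**Figure D5:**
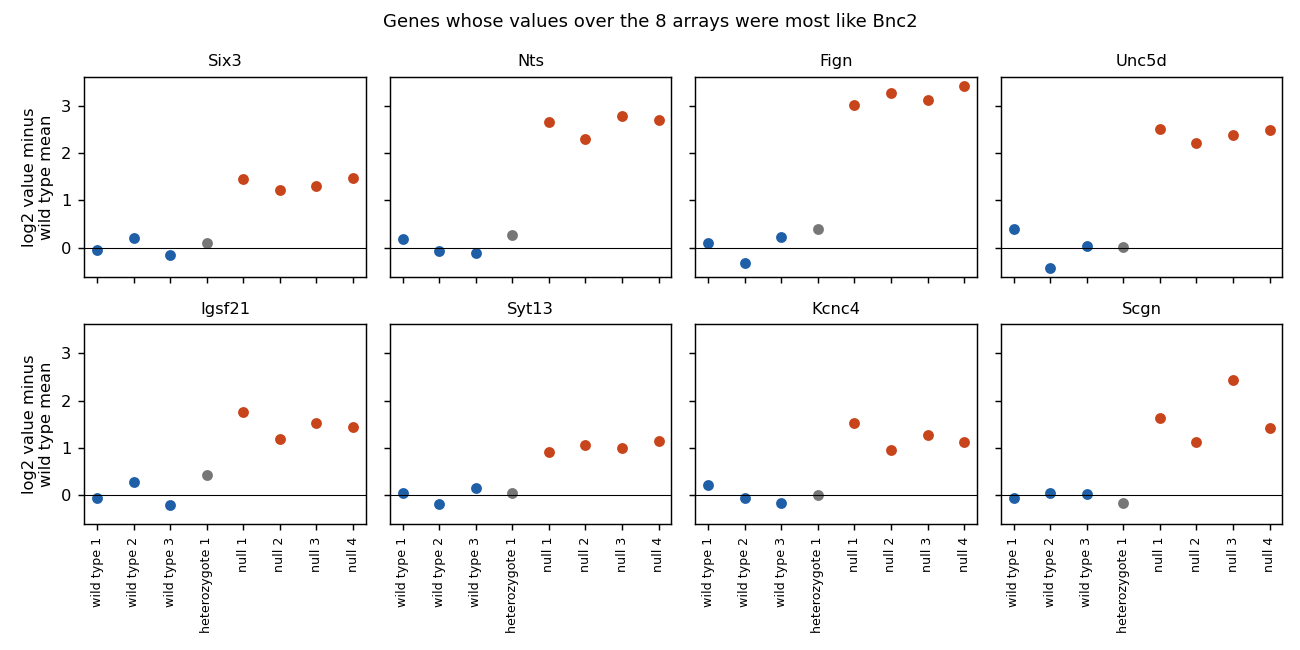
Log2 values minus the wild type mean (vertical axis) of the 8 genes most like Bnc2 on each of the 8 arrays (horizontal axis: 3 wild type, 1 heterozygote, 4 null). In each panel the null points lie above the wild type points, and the heterozygote lies near 0; Fign has the widest gap and Syt13 the narrowest difference, 1.03.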

How the data were processed

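The authors deposited 1 log2 value for each probe set and array, computed with RMA in Bioconductor from an Affymetrix mouse array, per the series' design text. The sources used here do not state its version or which arrays were normalized together. RMA corrects background, normalizes by quantiles and summarises probes by median polish. Differences of dim probe sets can be compressed in its values, which was not tested here. No detection calls or scanner files were used, and precision is limited by having 8 arrays.

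Of 45037 probe sets 34945 have 1 gene symbol, 932 several and 9160 none; symbols were updated through the reference gene table (GRCm38.p6, used for names and neighbours only), where 61 were not found. A gene is represented by its brightest probe set. The test between the wild type and the null arrays used limma 3.58.1 in R 4.3.3 (lmFit and eBayes, 7 arrays, two-sided, Benjamini-Hochberg over all probe sets, threshold 0.05), a script tested on simulated data. Members, lists and tests were chosen with earlier results of these data known. Named genes are the members, the 8 genes most like Bnc2, the 2 nearest measured genes on each side of each member gene, the first 2 and the 2 most different genes of each of 8 lists, and Bcl11b. The heterozygote was left out of the main comparison. Alternatives were other scalings, covariates, prior and sample sets. Figures were drawn with matplotlib 3.10.9.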

Additional observations from a re-analysis of the deposited data

Results flagged for a closer look

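In 54 null groups of 4 arrays examined, 1 array stood apart from the other 3 on 3 probe sets. Chance gives about 1 in 20 groups, so this count is near the chance share. Each time the array was null 3, which had the widest SD of log2 values of the null arrays, 2.05. The part of that SD was not tested. Cntln and Psip1 both lie beside Bnc2 on chromosome 4 and were examined for that reason, so nothing is read from their place. On Cntln null 3 read 8.41 against 7.51 to 7.58, and on Psip1 10.29 against 9.92 to 9.97. On 1452966_at of Bcl11b it read 9.24 against 8.17 to 8.33. No Bnc2 or Bnc1 probe set had such an array.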

How the results depend on the processing

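Under 17 alternatives the difference of 1438861_at stayed between 3.84 and 4.41, and under 16 that of 1444646_at between 0.69 and 0.89 and that of Bnc1 between 0.03 and 0.28, with Bnc1 never called. The third Bnc2 probe set ranged from -0.26 to 0.15, the latter with the array SD as a covariate. Leaving out 1 array gave 3.84 to 4.34, -0.26 to 0.07 and 0.69 to 0.89 on 1438861_at, 1459132_at and 1444646_at and 0.05 to 0.27 on Bnc1. Both dim Bnc2 probe sets and Bnc1 dropped out when dim probe sets were left out. The heterozygote's position on 1438861_at was -0.13, -0.10 with arrays centred and -0.09 with quantile normalization.

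Counts of probe sets moved more, from 840 higher and 204 lower. They were 548 and 124 with arrays centred, 110 and 96 when the heterozygote counted as a control, 189 and 93 with the SD covariate, 412 and 62 without wild type 1 and null 2, and 318 lower with quantile normalization. Leaving out 1 array gave 210 to 1733 higher and 76 to 443 lower. Of 122 listed genes, 0 were higher and 5 lower; leaving out 1 array gave 0 to 3 and 2 to 5, the probe set of smallest p 5 higher, centring 3 lower, the SD covariate 2 lower and the pair of arrays left out 3 lower. Of the genes most like Bnc2, 3 of 8 were kept without the heterozygote and 1 by Spearman. The cause was not tested.

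Same-numbered wild type and null arrays share only a number: their deviations correlated at -0.25, -0.31 and -0.17, and 0 of 3 correlated best with their own. With the replicate block, 1696 probe sets and 2 listed genes were higher, and 1438861_at differed by 3.99. That fit gives null 4 a number of its own.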
